A study of Caenorhabditis elegans with 44 samples.

Results

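MicroRNA levels of *C. elegans* larvae were compared between a pair of points in the larval cycle, the phase 1 h and phase 5 h libraries of an hourly small RNA time course. Larval development at 25 °C was divided into cycles of 7 h. The libraries of 8, 15, 22 and 29 h fell at phase 1 h, and those of 12, 19, 26 and 33 h at phase 5 h, so that each of 4 cycles contributed 1 library to either phase. These 8 libraries were chosen by their hour alone, out of 44 in the series. All mature strands with a mean of at least 10 raw counts over the 44 libraries entered the comparison, which kept 272 of 437 strands and left out 165.

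The animals were wild-type N2 worms without treatment, released from arrest as synchronized first-stage larvae by plating on food, and collected every hour from 5 h to 48 h as pools of whole animals. Both groups therefore share strain, genotype, temperature and food and differ in hours since feeding. There was 1 library for each hour. The 4 cycles, which are 7 h windows at successive ages of a single time course and need not match larval stages, stand in for replicates. The p-values thus rest on how far the 4 within-cycle differences scatter, which edgeR moderates by the scatter shared over strands. They do not measure the variation between cultures. Phase is a count of hours here, and no molt was scored in the labels. Within a cycle the phase 5 h library was always taken 4 h after the phase 1 h library, so a steady rise or fall with age also enters the difference.

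A microRNA hairpin yields a short duplex, of which the guide strand is usually loaded into an Argonaute protein and retained, while the passenger strand is usually discarded. Argonaute and guide then repress mRNAs that pair with the 5′ part of the guide, the seed. Larval growth in worms is tied to the molting cycle, which repeats once per larval stage, and to the heterochronic pathway, in which lin-4 and let-7 guides set the order of the stages. In what follows, guide denotes the strand of a hairpin with the higher mean level over the 44 libraries. Both strands were tested for 102 hairpins, and 68 further strands were tested alone.

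Total counts of the 8 libraries lay between 8380609 and 13630998, and the median of the series was 10678291. Levels are given as normalised counts, that is, counts scaled to the mean library total. The passenger share of all counts was between 1.81% and 2.43% in each of the 8 libraries. Strands of 1 hairpin are captured with their own efficiency, so levels are compared between libraries. The log2 difference between phases had a median of 0.08 over all strands by total count and -0.05 with TMM factors. For this reason log2 differences (phase 1 h minus phase 5 h) have the median of the 272 tested strands subtracted. Each stands with a standard error computed from the size of the unshifted difference and the edgeR F statistic. The p-values beside them test the difference by total count before this subtraction, not the shifted value.

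Of the 272 strands, 25 differed between the phases at an adjusted p under 0.05 in edgeR (9.19%), 22 being higher at phase 1 h (8.09%) and 3 higher at phase 5 h (1.1%). The 22 included passenger strands of lin-4 and of the miR-35 family, a family known from the embryo and encoded mostly in 1 cluster, and 7 guides of that family. The 3 were the guides miR-235-3p and miR-81-3p and the passenger miR-71-3p. The number with an unadjusted p under 0.05 was 75. With TMM factors the split was 20 higher at phase 1 h and 11 higher at phase 5 h, or 64.5% of calls at phase 1 h against 88% by total count. The DESeq2 test gave 59 calls with a still more even split, given below. Leaving out the first or the third cycle left 0 calls by edgeR (66 and 60 strands had an unadjusted p under 0.05), whereas 4 strands were called without the second cycle, 3 of them among the 25, and 26 without the fourth, 18 of them among the 25. All 25 strands had the same direction in each of the 4 cycles, so a fit that left out a cycle could not turn it. Each of the 25 calls was lost in 2 to 4 of the 4 fits that left out a cycle. The same 4 differences chose the 25, so their shared direction describes them and tests nothing. Over all strands, 28.7% were higher at phase 1 h in every cycle and 12.5% at phase 5 h.

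**Figure D1:**
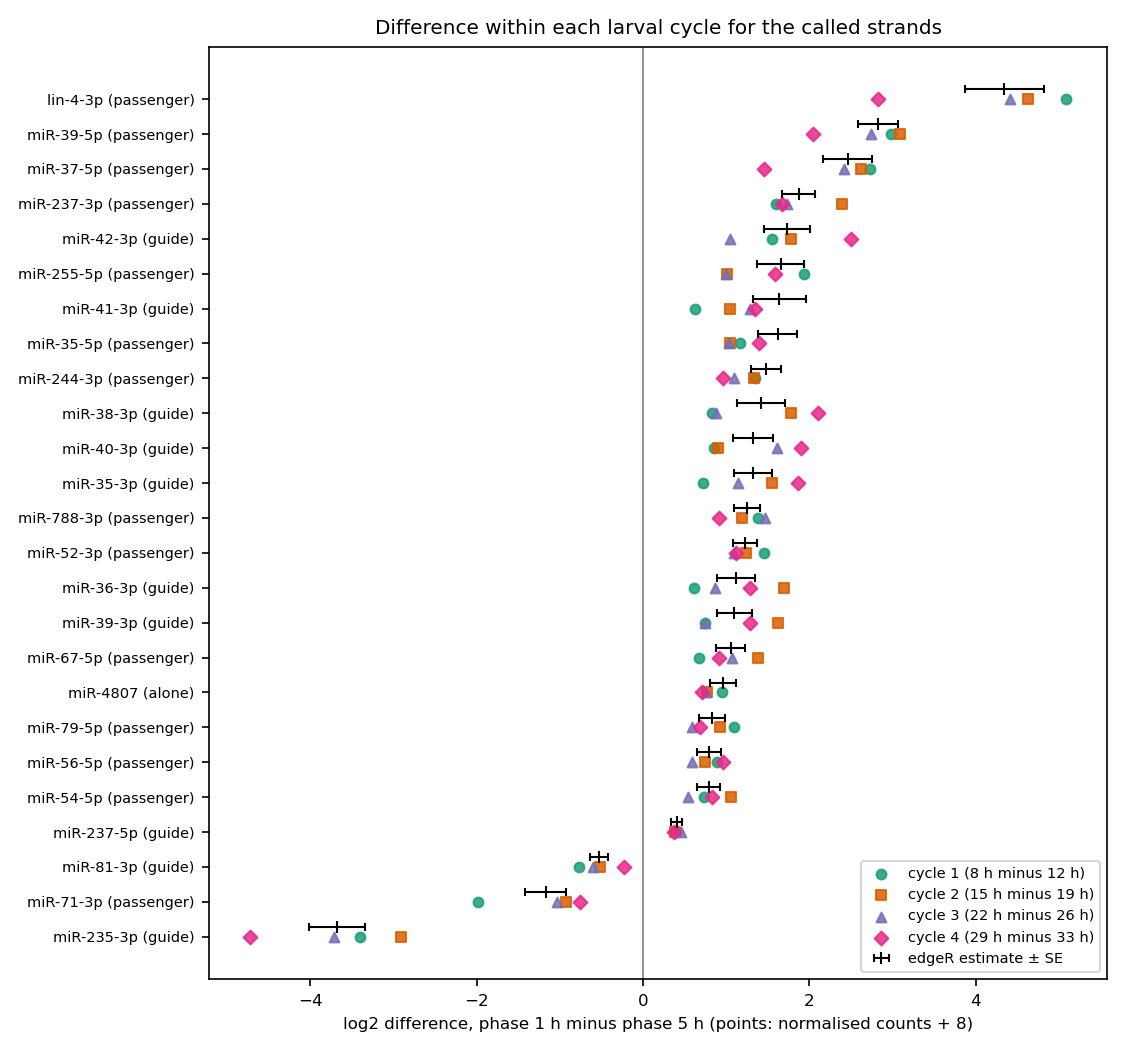
Log2 difference, phase 1 h minus phase 5 h, for the 25 called strands, without subtraction of the median of all strands. Coloured points are the 4 cycles, computed from normalised counts with 8 added, and the black mark above each row is the edgeR estimate ± SE. All 4 points of every strand lie on 1 side of 0, and lin-4-3p and miR-235-3p are the outermost strands.

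The largest difference was that of lin-4-3p, the passenger of lin-4, whose guide represses lin-14 and lin-28 to let larvae pass beyond the first stage. The hairpin lies on chromosome II from 5902254 to 5902347 on the plus strand, in an intron of F59G1.4 (WBcel235 annotation). Normalised counts of lin-4-3p were 3775, 2389, 2099 and 2617 at phase 1 h and 103, 89.2, 90.8 and 364 at phase 5 h. The groups did not overlap, and the phase 5 h library of the fourth cycle stood above the other 3. The difference was 4.26 ± 0.48 on the log2 scale, or 19.1-fold (adjusted p = 0.0128), with 4 of 4 cycles higher at phase 1 h. In whole animals, fewer cells with a strand and less of it per cell cannot be told apart, here and for every strand below.

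The guide lin-4-5p did not pass the test. It was at 20323, 37262, 36068 and 39922 at phase 1 h and at 26972, 27880, 28612 and 35344 at phase 5 h. The groups overlapped because the library of 8 h was the lowest of all 8, and the difference was 0.05 ± 0.18 (adjusted p = 0.642). The lin-4 passenger thus amounted to 18.6%, 6.41%, 5.82% and 6.56% of the guide at phase 1 h and to 0.382%, 0.320%, 0.317% and 1.03% at phase 5 h. Every phase 1 h percentage was above every phase 5 h percentage.

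The clustered members of the miR-35 family lie within 1 kb on chromosome II, from the start of mir-35 at 11537608 to the end of mir-41 at 11538404, plus strand, in an intron of Y62F5A.9 on the opposite strand. The eighth member, mir-42, lies apart at 11889811 to 11889905, next to mir-43 and mir-44. The family is required for embryonic development and its guides share their seed. Of the 22 strands higher at phase 1 h, 10 came from these 8 hairpins (45.5%), which account for 16 of the 272 tested strands (5.88%). Hairpins of 1 cluster are not independent members, and the family was listed with earlier results of these data known. The shares therefore describe the calls and test nothing. The guides of this family may share reads, since the authors allowed a read up to 100 places in the genome.

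All 8 guides of the family, miR-35-3p to miR-42-3p, were tested, and 7 were higher at phase 1 h with none higher at phase 5 h. With a linear term in hours in place of the cycle factor, only miR-42-3p of the 7 stayed called in edgeR (adjusted p = 0.0369). The rest of the 7 then had an adjusted p from 0.0625 to 0.200. None of the 7 was called in edgeR against the following phase 1 h library (adjusted p from 0.224 to 0.808). The median relative difference of the 8 was 1.24, with a range from 1.02 to 1.65, against 0 over all strands by construction. Summed over the 8 guides, normalised counts were 68046, 46122, 54242 and 51972 at phase 1 h and 39592, 16306, 25215 and 15767 at phase 5 h. The sums at phase 1 h were all above those at phase 5 h.

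Among the abundant guides, miR-35-3p was at 20527, 15199, 19771 and 19241 at phase 1 h and at 12434, 5184, 8982 and 5291 at phase 5 h. Its groups did not overlap, and the difference was 1.24 ± 0.23 (adjusted p = 0.0357). miR-40-3p was at 16910, 8968, 13044 and 12515 at phase 1 h and at 9324, 4804, 4247 and 3347 at phase 5 h, a difference of 1.24 ± 0.24 (adjusted p = 0.0390). Here the 12 h library was above the 15 h library, so the groups overlapped, though each cycle was higher at phase 1 h. miR-38-3p, less abundant, was at 902, 877, 1055 and 1028 against 505, 250, 571 and 233, and differed by 1.33 ± 0.29 without overlap (adjusted p = 0.0477). miR-42-3p differed by 1.65 ± 0.28 (adjusted p = 0.0314), but by 0.22 ± 0.61 (adjusted p = 0.808) when each phase 5 h library was set against the phase 1 h library that followed it. Its levels were 4784, 2462, 1479 and 1706 at phase 1 h and 1623, 714, 713 and 296 at phase 5 h. The level was highest in the first cycle in both phases, which made the groups overlap.

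The remaining guides of the family were close to these values. miR-39-3p differed by 1.02 ± 0.21 (adjusted p = 0.0428), and miR-36-3p by 1.03 ± 0.23 (adjusted p = 0.0477). miR-41-3p differed by 1.56 ± 0.32 (adjusted p = 0.0428), but on few reads, from 17 to 33 raw counts per library at phase 1 h and from 5 to 20 at phase 5 h. miR-37-3p, at 8064, 7783, 7822 and 7750 against 5430, 1898, 4281 and 2624, did not pass the test at 1.18 ± 0.29 (adjusted p = 0.0631), although its groups did not overlap. The spread of miR-37-3p lay in the phase 5 h libraries, as the 4 phase 1 h levels were nearly equal.

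All 8 passengers of the family were tested as well, and 3 were higher at phase 1 h with none higher at phase 5 h. Their median relative difference was 1.91, with a range from 0.91 to 2.80. miR-39-5p was at 812, 608, 570 and 440 at phase 1 h and at 95.7, 64.4, 78.2 and 101 at phase 5 h. With every phase 1 h level above every phase 5 h level, the difference was 2.75 ± 0.24, or 6.71-fold (adjusted p = 0.0117). miR-37-5p was at 402, 279, 318 and 291 against 53.9, 38.8, 53.0 and 101, again without overlap, a difference of 2.38 ± 0.29 (adjusted p = 0.0128). In both strands the phase 5 h level was highest in the fourth cycle. miR-35-5p was scarce at 41.3, 37.4, 34.2 and 31.2 against 13.9, 14.0, 12.6 and 6.94, and differed by 1.54 ± 0.23 (adjusted p = 0.0245). The other 5 passengers did not pass the test. miR-38-5p set the upper end of the range and had only 0 or 1 raw counts in each phase 5 h library. The median lay between miR-40-5p and miR-41-5p, which were scarce too, at 1 to 10 and 2 to 31 raw counts per library. miR-36-5p set the lower end at 0.91 ± 0.33 (adjusted p = 0.119) and was higher at phase 1 h in 3 of 4 cycles.

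**Figure D2:**
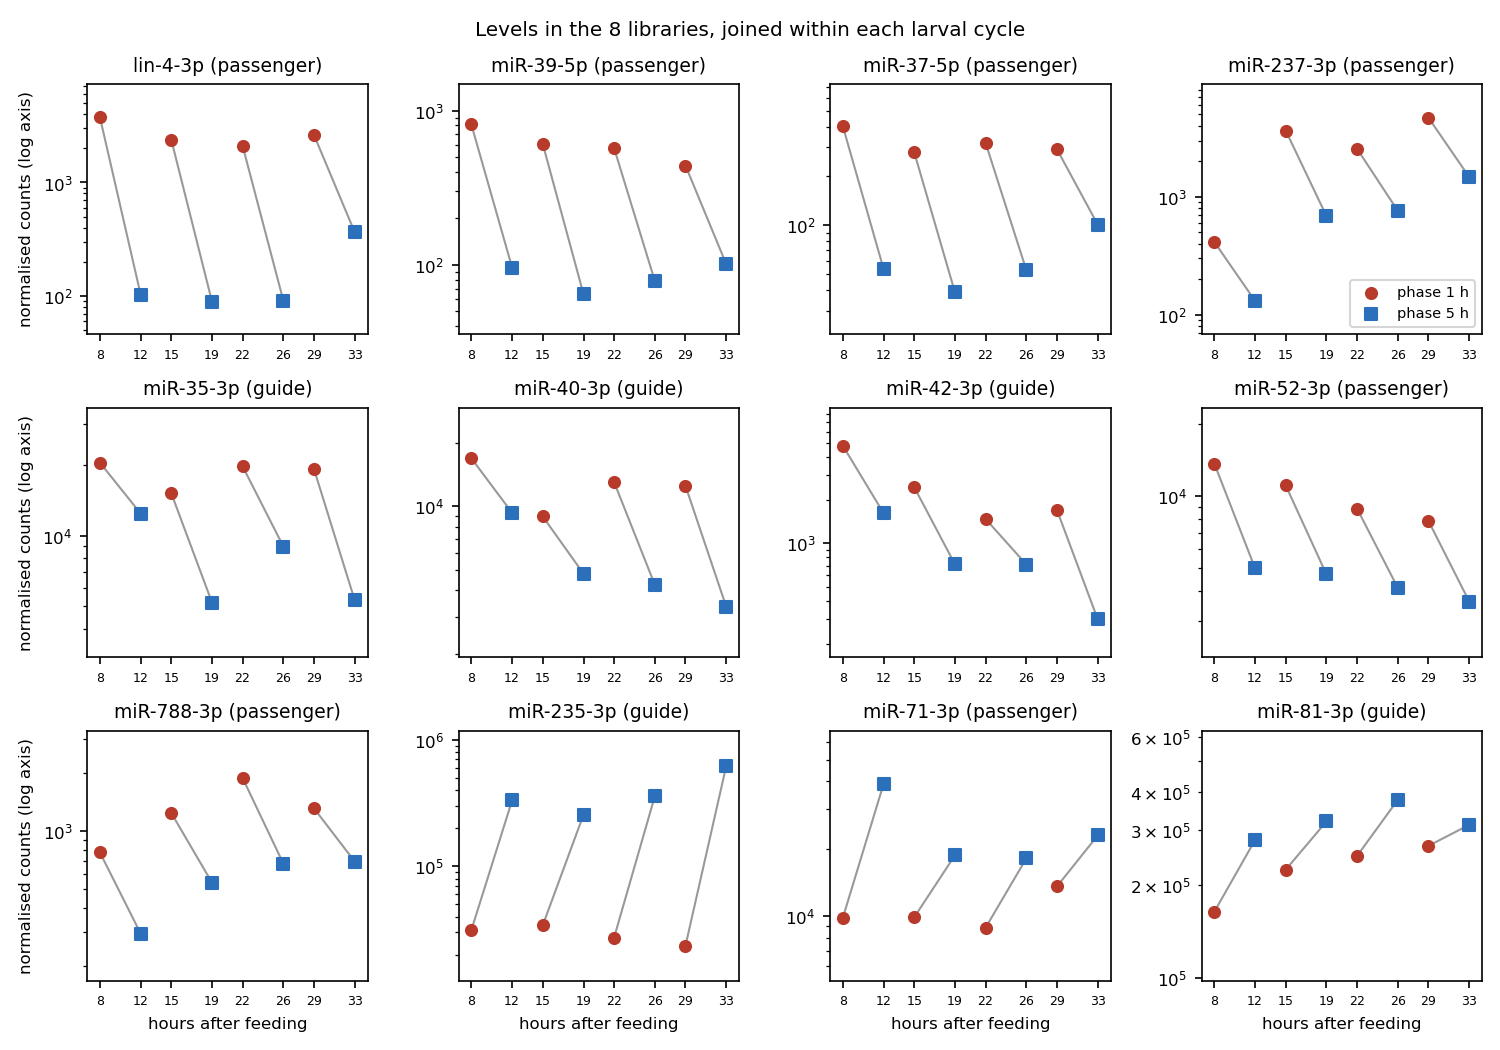
Normalised counts (log axis) against hours after feeding for 12 of the 25 called strands, in which the libraries of a cycle are joined by a line. Red circles are phase 1 h and blue squares phase 5 h, and the line falls in every cycle for the first 9 strands and climbs in every cycle for miR-235-3p, miR-71-3p and miR-81-3p.

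The strands of mir-237, a relative of lin-4, were both called. The hairpin lies on chromosome X from 8154084 to 8154182. Its passenger miR-237-3p was at 414, 3647, 2551 and 4681 at phase 1 h and at 131, 686, 759 and 1469 at phase 5 h. Levels were far lower in the first cycle than in the later ones, so the groups overlapped, and the difference within cycles was 1.79 ± 0.20 (adjusted p = 0.0128). The guide miR-237-5p was at 28395, 281606, 488812 and 638778 against 21554, 216435, 355106 and 493102. Its difference of 0.32 ± 0.06, or 1.25-fold, was the smallest of the called strands (adjusted p = 0.0314), and it was not called with TMM factors.

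Several further passengers were higher at phase 1 h. Among them were strands of the miR-51 family, which is related to vertebrate miR-100 and needed in the embryo. miR-52-3p was at 13668, 11077, 8852 and 7869 at phase 1 h and at 4987, 4705, 4131 and 3624 at phase 5 h. Levels were lower in each later cycle in both phases, yet the groups did not overlap, and the difference was 1.14 ± 0.14 (adjusted p = 0.0128). The passengers miR-54-5p (0.71 ± 0.14, adjusted p = 0.0357) and miR-56-5p (0.71 ± 0.15, adjusted p = 0.0390) of a cluster on chromosome X differed less, and miR-56-5p was not called with TMM factors. None of the 6 miR-51 family guides passed the test (9.19% of all strands did), with a median of 0.24 and a range from -0.03 to 0.51.

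miR-788-3p was at 775, 1242, 1885 and 1311 at phase 1 h and at 294, 539, 676 and 694 at phase 5 h, with a difference of 1.17 ± 0.16 and no overlap (adjusted p = 0.0165). miR-79-5p, the passenger of a microRNA with targets in glycan synthesis, was at 1613, 1986, 1425 and 1660 against 751, 1045, 944 and 1034. The groups were apart, and the difference was 0.74 ± 0.16 (adjusted p = 0.0428), a call that was lost with TMM factors. miR-67-5p, encoded in an intron of zmp-1, was at 311, 315, 271 and 251 against 192, 116, 125 and 129, and differed by 0.97 ± 0.18 (adjusted p = 0.0350). The scarce passengers miR-255-5p (1.58 ± 0.28, adjusted p = 0.0350) and miR-244-3p (1.40 ± 0.18, adjusted p = 0.0128) and miR-4807 (0.88 ± 0.15, adjusted p = 0.0314), which was tested alone, complete the 22. Of all 25 called strands, 5 had a mean under 100 normalised counts over the 8 libraries.

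The opposite pattern was most pronounced for miR-235-3p, the guide of the worm member of the miR-92 family, which keeps progenitor cells quiescent in starved larvae. Normalised counts were 31293, 34095, 27324 and 23549 at phase 1 h and 331711, 255701, 359638 and 622769 at phase 5 h. The groups were far apart, and the relative difference was -3.77 ± 0.33, meaning 13.6-fold higher at phase 5 h (adjusted p = 0.0117). Without subtraction of the median, the single cycles differed by -3.41, -2.91, -3.72 and -4.72. The passenger miR-235-5p was scarce, at 7.41, 16.0, 53.9 and 20.8 against 27.9, 20.9, 24.0 and 416. It overlapped between the phases and did not pass the test (-1.41 ± 1.03, adjusted p = 0.445), with the 33 h library far above the rest.

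miR-71 is known for promoting survival of starved larvae and long life in adults. Its passenger miR-71-3p was at 9823, 9870, 8872 and 13568 at phase 1 h and at 38998, 18702, 18122 and 22938 at phase 5 h. The groups did not overlap, and the difference was -1.25 ± 0.25 (adjusted p = 0.0496), the closest of all calls to the threshold. Its guide miR-71-5p was at 56835, 36111, 29702 and 74834 against 67130, 68052, 86713 and 34488, higher at phase 5 h in 3 of 4 cycles (-0.50 ± 0.46, adjusted p = 0.575). Phases 1 h and 5 h were not the lowest and highest points of this guide in the cycle, as given below.

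miR-81-3p belongs to the miR-58 family, a relative of insect bantam. It was at 163553, 223644, 247748 and 267031 at phase 1 h and at 278989, 320237, 376201 and 312262 at phase 5 h. Phase 1 h levels were higher in each later cycle, yet every phase 5 h library was above every phase 1 h library, and the difference was -0.61 ± 0.11 (adjusted p = 0.0477). Of the other 3 tested members of the family none was called, and their differences were -0.33 ± 0.07 for miR-82-3p, -0.30 ± 0.12 for miR-80-3p and -0.07 ± 0.05 for miR-58a-3p. miR-58b-3p was below the filter.

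Of the called strands, 16 had groups that did not overlap, 13 with phase 1 h above and all 3 with phase 5 h above. Over all 272 strands the shares were 7.35% and 2.94%. The next strands beyond the threshold were miR-228-5p, among the most abundant guides (0.24 ± 0.07), miR-789-3p (-0.94 ± 0.19) and miR-34-3p (-1.30 ± 0.27), each with an adjusted p of 0.0533. On the other side of it were miR-38-3p, miR-36-3p and miR-71-3p.

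Several other families held no called strand. With 9.19% of all 272 strands called, the absence of calls in lists this short does not set them apart. The let-7 family, whose guides drive the later larval stages and the step to adulthood, had 5 members tested and none called, with a median of -0.51 and a range from -0.80 to -0.11. let-7-5p was at 126, 1138, 64750 and 87845 at phase 1 h and at 203, 1809, 61082 and 120955 at phase 5 h. Its level differed far more between cycles than between phases, and the difference was -0.51 ± 0.17 (adjusted p = 0.180). For miR-48-5p, at 7941, 101612, 243648 and 269154 against 24441, 178938, 287275 and 312604, it was -0.80 ± 0.27 (adjusted p = 0.159), and all 4 cycles were higher at phase 5 h. For 4 of the 5 members the direction turned in at least 1 of the fits that deal with a steady trend, and miR-795-5p was the exception. let-7-5p was at 1.71 ± 0.85 with a linear term in hours (adjusted p = 0.317) and at 1.72 ± 1.07 against the following phase 1 h library (adjusted p = 0.444). miR-48-5p was at 0.02 ± 0.64 and 0.45 ± 0.41 in the same fits, and miR-84-5p and miR-241-5p were at 0.13 ± 0.26 and 0.31 ± 0.44 against the following library.

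No member was called of the miR-44 family (4 tested, median 0.13), whose strands miR-44-3p and miR-45-3p are near-identical and may share reads, of the mir-64 cluster (4 tested, median -0.27, with miR-64-5p called higher at phase 5 h with TMM factors, adjusted p = 0.0462) or of the miR-2 seed family (4 tested, median -0.01). The mir-42 to mir-44 cluster had 6 strands tested, of which miR-42-3p alone was called, with a median of 1.28. The strands used as labels of cell types were not called either. These were lsy-6-3p (0.22 ± 0.16), miR-124-3p (0.35 ± 0.16) and miR-791-3p (0.37 ± 0.19) for neurons, miR-1-3p (-0.19 ± 0.17) for muscle and miR-228-5p for glia and hypodermis, and all were present in each of the 8 libraries. The 5 most abundant strands, which include miR-57-5p (0.12 ± 0.06) and miR-72-5p (0.12 ± 0.05), gave no call. At 9.19% called over all strands, the absence of calls among so few strands sets none of these groups apart.

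By role, 13.7% of the 102 passengers were called, against 9.8% of the 102 guides and 1.47% of the 68 strands tested alone. The median absolute log2 difference, not shifted, was 0.45 for passengers and 0.28 for guides. Within the 102 hairpins the passenger had the larger difference in 64. Passengers are the scarcer strands by definition, down to a mean of 2.23 normalised counts for miR-38-5p, whose unshifted difference was 2.89. Wider counting scatter at low levels and a larger phase difference of passengers therefore cannot be told apart in these shares and medians. The 25 called strands came from 22 hairpins, and both strands were called for miR-35, miR-39 and miR-237. Whether the strands of a hairpin differed from each other was asked by testing the passenger-to-guide ratio within libraries, which is free of library scaling. The ratio differed for 8 of 102 hairpins (7.84%), 7 higher at phase 1 h (6.86%) and 1 higher at phase 5 h (0.98%), and 24 had an unadjusted p under 0.05. Leaving out the second cycle or the first left 1 hairpin higher at phase 1 h, and leaving out the fourth gave 14.

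For lin-4 the log2 ratio was higher at phase 1 h by 4.19 ± 0.46 (adjusted p = 0.000838). For let-7 it was higher by 3.80 ± 0.72 (adjusted p = 0.0133), although neither let-7 strand was called by itself. The passenger let-7-3p was at 23.3, 319, 9112 and 12108 at phase 1 h and at 0.929, 275, 233 and 639 at phase 5 h, where the first of these was 1 raw count with a 95% Poisson interval of 0.0235 to 5.18 normalised counts. It made up 18.5%, 28.0%, 14.1% and 13.8% of the guide at phase 1 h and 0.459%, 15.2%, 0.382% and 0.528% at phase 5 h. The library of 19 h was thus unlike the other phase 5 h libraries and lay within the phase 1 h range. Poisson intervals cover counting error only.

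The passenger of miR-39 made up 6.33%, 8.19%, 7.85% and 7.16% of its guide at phase 1 h and 1.25%, 2.67%, 1.80% and 4.01% at phase 5 h, with a log2 ratio higher by 1.73 ± 0.31 (adjusted p = 0.0112). The percentages did not overlap between phases. For miR-237 they were 1.46%, 1.30%, 0.522% and 0.733% against 0.608%, 0.317%, 0.214% and 0.298%, a difference of 1.47 ± 0.26 (adjusted p = 0.0112). The percentages overlapped, since the share was lower in the later cycles at both phases. The miR-84 ratio differed by 1.23 ± 0.31 (adjusted p = 0.0430), and those of miR-67 by 1.05 ± 0.22 (adjusted p = 0.0197) and of miR-34, known in stress responses, by 1.21 ± 0.30 (adjusted p = 0.0430). The miR-34 strands differed only 1.48-fold in mean level, so their roles are not clear-cut. The exception was miR-239a, whose passenger made up 10.0%, 10.3%, 7.93% and 11.9% of the guide at phase 1 h and 32.1%, 17.7%, 13.6% and 21.0% at phase 5 h. Its share was higher at phase 5 h without overlap (-1.01 ± 0.26, adjusted p = 0.0430). For miR-235 and miR-71 the ratio did not pass the test, at 2.34 ± 0.66 (adjusted p = 0.0694) and -0.78 ± 0.45 (adjusted p = 0.347).

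**Figure D3:**
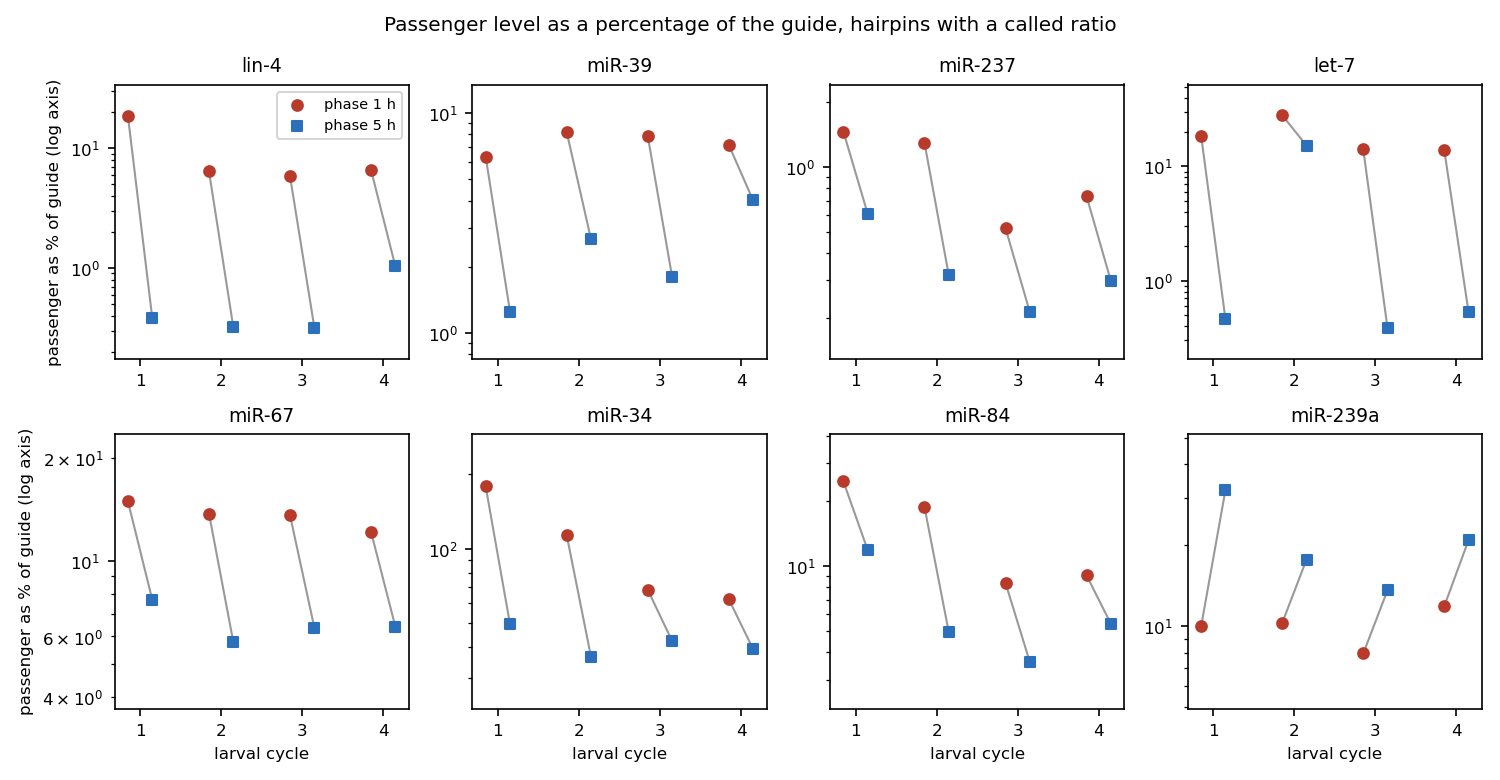
Passenger level as a percentage of the guide (log axis) by larval cycle, for the 8 hairpins with a called ratio. Red circles are phase 1 h and blue squares phase 5 h, joined within a cycle. The percentage is higher at phase 1 h in each cycle for 7 hairpins and lower in each cycle for miR-239a, and the let-7 square of the second cycle lies at 15.2%.

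The 7 phases of the cycle, from the 28 libraries between 8 h and 35 h, show where both points lie on the profile of each strand. The profile is the log2 level, with 8 added, minus the mean of its cycle, as the median of 4 cycles. Of the 22 strands higher at phase 1 h, 13 had their highest profile value at phase 1 h, 7 at phase 2 h and 2 at phase 7 h, and 12 had their lowest at phase 5 h and 7 at phase 4 h. Because phases 1 h and 5 h chose the strands, these counts describe them and test nothing. The profile of lin-4-3p was 2.19 at phase 1 h, 1.28 at phase 2 h and -2.26 at phase 5 h. The profiles of miR-39-5p and miR-37-5p were already at 1.08 and 1.30 at phase 7 h, while those of the guides miR-35-3p and miR-40-3p were at 0.93 and 1.04 at phase 2 h, above their values of 0.58 and 0.53 at phase 1 h. For miR-235-3p the profile was -2.51 at phase 1 h and between 1.02 and 1.09 at phases 3 h to 5 h. The uncalled passenger miR-235-5p, which was scarce, went from -1.54 at phase 1 h to 1.96 at phase 3 h. The uncalled guide miR-71-5p went from -1.58 at phase 2 h to 0.96 at phase 6 h. Its called passenger miR-71-3p had the narrower range, from -0.62 at phase 1 h to 0.53 at phase 6 h. In the fourth cycle lin-4-3p and miR-52-3p were lowest at phase 7 h and not at phase 4 h to 6 h as in the first 3 cycles.

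**Figure D4:**
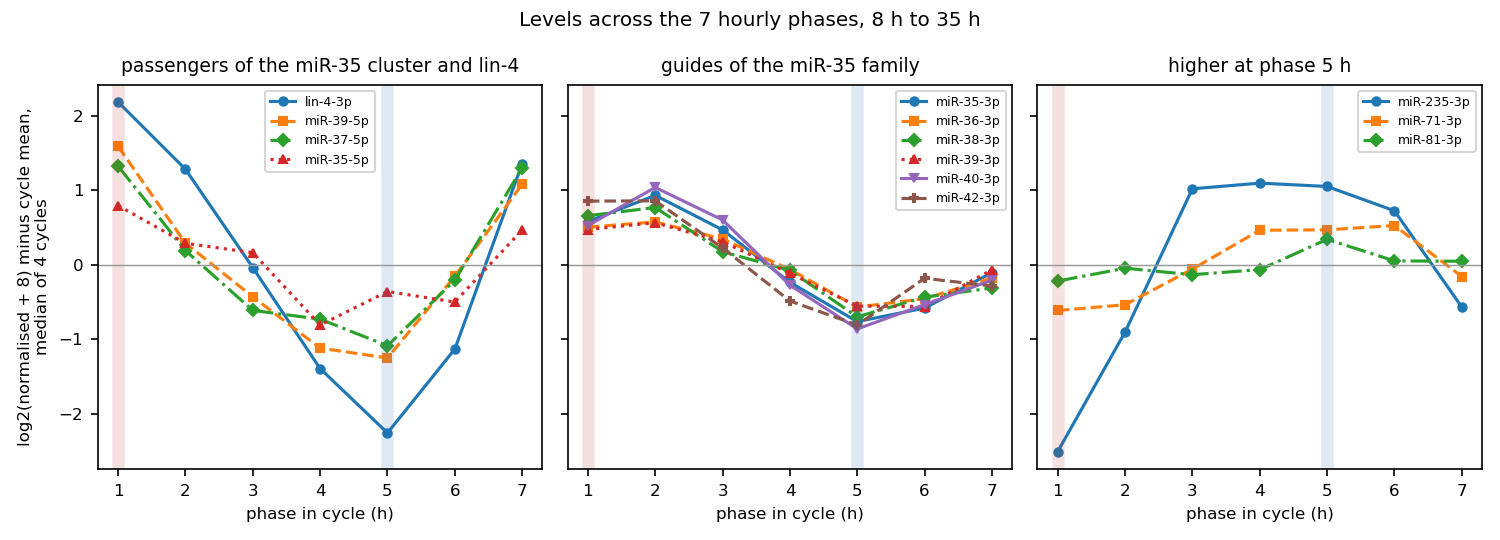
Median over 4 cycles of the log2 level (normalised counts with 8 added) minus the cycle mean, against the phase in hours, for 13 called strands. Shaded bars mark phases 1 h and 5 h. Passengers of lin-4 and miR-39 are highest at phase 1 h, the 6 miR-35 family guides shown at phase 2 h, and miR-235-3p is lowest at phase 1 h.

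The same contrast was also made on libraries of neighbouring hours. At 7, 14, 21 and 28 h against 11, 18, 25 and 32 h, 1 h earlier, 11 strands were called (4.04%), 10 of them higher at the first hours (3.68%). These libraries are not among the 8 above, though they come from the same time course. Shared with the calls above were 8 strands, 8 of the 25 and 8 of the 11. miR-235-3p differed by -1.97 ± 0.21 (adjusted p = 0.0156), and the passengers miR-237-3p by 2.07 ± 0.25 and miR-35-5p by 2.09 ± 0.26 (both adjusted p = 0.0156). The other 3 were the passengers of the mir-42 to mir-44 cluster, and whether their difference was larger here than at phases 1 h and 5 h was not tested. miR-42-5p was at 1350, 1152, 878 and 584 at 7, 14, 21 and 28 h and at 188, 186, 183 and 58.5 at the later hours, a difference of 2.75 ± 0.22 (adjusted p = 0.0119). At phases 1 h and 5 h it was at 1121, 509, 492 and 368 against 340, 448, 296 and 59.0 (1.22 ± 0.45, adjusted p = 0.134). Likewise miR-44-5p differed by 2.83 ± 0.34 at the earlier hours (adjusted p = 0.0156) and by 1.35 ± 0.63 at phases 1 h and 5 h (adjusted p = 0.205).

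At 9, 16, 23 and 30 h against 13, 20, 27 and 34 h, 1 h later, edgeR called 0 strands, and 43 had an unadjusted p under 0.05. Guides of the mir-35 to mir-41 cluster had differences there such as 1.56 ± 0.31 for miR-35-3p (adjusted p = 0.0994) and 1.20 ± 0.17 for miR-39-3p (adjusted p = 0.0640), whereas at the earlier hours these were at 0.17 ± 0.16 and 0.35 ± 0.21. The guide miR-42-3p was called at the earlier hours (1.05 ± 0.15, adjusted p = 0.0243) and not at the later hours, where its standard error was larger (1.24 ± 0.57, adjusted p = 0.412). Unlike these guides, the passenger miR-39-5p had the smaller estimate at the later hours. It went from 2.10 ± 0.36 at the earlier hours (adjusted p = 0.0475) to 0.80 ± 0.57 at the later hours (adjusted p = 0.546). Whether any of these differences changed between the sets of hours was not tested.

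**Figure D5:**
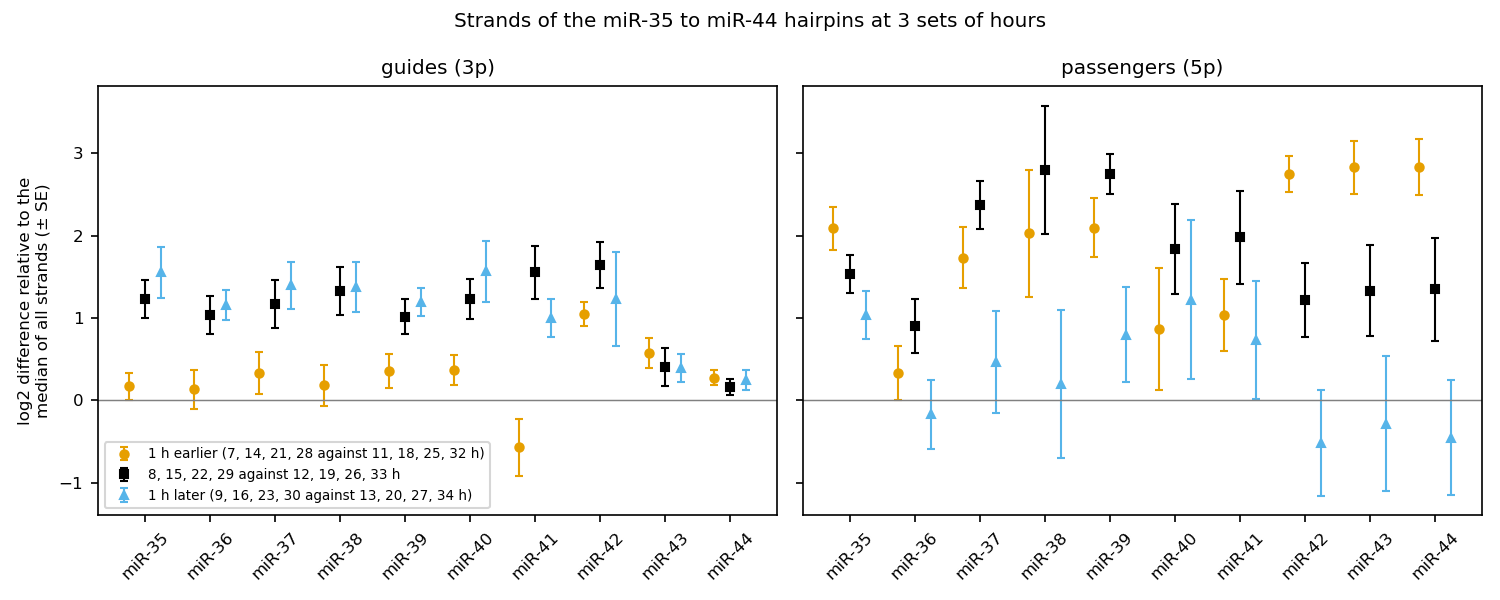
Log2 difference relative to the median of all strands (± SE of the fit) for guides (left) and passengers (right) of the miR-35 to miR-44 hairpins, at hours 1 earlier (yellow), at phases 1 h and 5 h (black) and at hours 1 later (blue). The miR-35 to miR-40 guides lie closer to 0 at the earlier hours than at the later hours, and the miR-42 to miR-44 passengers are highest at the earlier hours.

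A steady trend with age was handled by 2 further fits. With a linear term in hours in place of the cycle factor, 10 strands were called (3.68%), 9 of them higher at phase 1 h (3.31%). All 10 were among the 25, and they were lin-4-3p (4.25 ± 0.61), miR-39-5p (2.64 ± 0.25), miR-37-5p (2.37 ± 0.34), miR-35-5p (1.39 ± 0.21), miR-42-3p (1.27 ± 0.27), miR-244-3p (1.16 ± 0.19), miR-788-3p (1.36 ± 0.25), miR-52-3p (0.99 ± 0.13), miR-67-5p (0.85 ± 0.17) and miR-235-3p (-3.76 ± 0.32). In the other fit each phase 5 h library was set against a library that followed it, at 15, 22, 29 and 36 h. The sense of any trend was thereby turned. In this fit 3 strands were called (1.1%), namely miR-39-5p (2.79 ± 0.21), miR-37-5p (2.64 ± 0.21) and miR-36-5p. That comparison shares 7 of its 8 libraries with the first. Its library of 36 h lies outside the 4 cycles, and the paper places the transition to adulthood at about that hour. In that comparison lin-4-3p was at 3.54 ± 1.51 (adjusted p = 0.345) and miR-235-3p at -2.94 ± 0.67 (adjusted p = 0.224). miR-4807, whose level was lower in each later cycle in both phases, went from 0.88 to -0.35.

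Whether the phase difference was of the same size in early and late larvae was asked by an interaction of phase with the last 2 cycles. No strand was called in edgeR (0 of 272), while 24 had an unadjusted p under 0.05. The strands with the smallest p, each with an adjusted p of 0.277, included miR-241-5p, a let-7 family guide, at 770, 8394, 20596 and 15226 at phase 1 h and at 2041, 22935, 18207 and 14812 at phase 5 h. It was higher at phase 5 h in the first 2 cycles and nearly level in the last 2. The fit left 2 residual degrees of freedom.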

How the data were processed

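Pools of whole N2 worms were sequenced by the authors with the Illumina TruSeq small RNA kit. Adapter trimming and Bowtie alignment to ce10 were run through QuasR with up to 100 hits per read. Same-strand reads whose start lay at most 3 bp from the mature 5′ end (miRBase v22, lifted to ce10) gave the deposited raw count of each strand. Software versions were not given in the sources used here. The deposited log2 table, made by the authors from total-scaled counts plus 8, was matched to the counts and not used for tests.

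Counts of the 8 libraries were fitted in edgeR 4.0.16 (R 4.3.3, quasi-likelihood) with cycle and phase, total-count scaling and 3 residual degrees of freedom, and p-values were Benjamini-Hochberg adjusted over 272 strands. The replicate number is the larval cycle. Samples of a cycle deviated together (correlations 0.88, 0.65, 0.256 and 0.877), so cycle was kept as a block. The library of 15 h nevertheless correlated best with that of 12 h, and 26 h with 29 h, so nearness in time and cycle cannot be told apart. An exact sign-flip test over 4 cycles cannot go below p = 0.125. The ratio fit had a library factor. Alternatives used limma 3.58.1, DESeq2 1.42.0, other scaling, filters, hours and blocks, and each cycle left out. Scripts were tested on simulated data. Named strands were the 10 largest called differences per direction and with 100 or more normalised counts on average, the 5 largest called ratio differences, both strands of 5 hairpins, list members, and the 3 strands on either side of the threshold. The other called strands are given to complete the counts. Members and lists were chosen with earlier results of these data known. Coordinates are from the WBcel235 annotation, not from ce10.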

Additional observations from a re-analysis of the deposited data

Results flagged for a closer look

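In 60 groups of 4 libraries, the highest or lowest library was compared with its neighbours by Dixon's criterion for 4 values (0.829), by which chance flags about 1 in 20 groups. A library stood apart in 4 of them. At 33 h, lin-4-3p was at 364 normalised counts, against 89.2 to 103 in the other phase 5 h libraries. In the same library miR-235-5p was at 416, against 20.9 to 27.9 in the others, and miR-35-5p was at 6.94, against 12.6 to 14.0. At 8 h, lin-4-5p was at 20323, against 36068 to 39922 in the other phase 1 h libraries. The paper describes both lin-4 strands as low at the first sampled hour, 5 h, and rising rapidly from there. Whether this early rise sets the 8 h library apart was not tested. Without the fourth cycle, which holds the 33 h library, the lin-4-3p difference stayed called.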

How the results depend on the processing

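Every one of the 25 called strands (22 at the stricter filter, which left 3 out) kept its direction with other scaling, filters and tests, without the replicate block and with each cycle left out. Because each strand had the same direction in all cycles, leaving out a cycle or the block could not turn it. Leaving out each cycle in turn gave 0 to 18 strands higher at phase 1 h and 0 to 8 higher at phase 5 h, 1 to 14 hairpins with a higher ratio at phase 1 h and 0 to 1 at phase 5 h, and 0 to 10 strands (0 in the fit of all cycles) whose difference changed between early and late cycles. Without the replicate block (cycles not paired) 5 strands were higher at phase 1 h and 1 at phase 5 h, with 3 and 0 hairpin ratios. With a linear hour term the strands were 9 and 1, with the following library 3 and 0 (ratios 2 and 0), 1 h earlier 10 and 1 (ratios 13 and 2), and 1 h later 0 and 0 (ratios 1 and 0). Strands higher at phase 5 h numbered 11 of 31 calls with TMM factors, 10 of 30 with DESeq2 size factors and 28 of 59 by the DESeq2 test. They were 5 of 29 by limma with 8 added, 5 of 27 at a mean of at least 100 counts and 1 of 20 without the filter. Among called strands and ratios, directions turned for miR-237-3p (-0.75), miR-79-5p (-0.11) and miR-255-5p (-0.073) and for the ratios of miR-39 (-0.37), miR-237 (-0.94) and miR-84 (-0.075) at hours 1 later, for miR-237-5p (-0.49) and miR-41-3p (-0.56) at hours 1 earlier, and for miR-4807 (-0.23) with the following library, all without the median subtracted and none past the threshold. The cause was not tested. Low counts limited miR-41-3p, miR-38-5p, miR-40-5p, miR-41-5p and miR-235-5p.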

Other observations

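Beyond the called strands, 12 strands had groups that did not overlap without passing the test in edgeR, and those below were chosen after their values were seen. The passenger miR-55-5p, from the same cluster as miR-54 and miR-56, was at 719, 704, 738 and 923 normalised counts at phase 1 h and at 491, 517, 448 and 621 at phase 5 h, a relative log2 difference of 0.49 ± 0.13 (adjusted p = 0.0631). The passenger miR-46-5p was at 26226, 26503, 21437 and 26503 against 19645, 16564, 18684 and 16834 (0.40 ± 0.14, adjusted p = 0.0948). In the opposite direction, miR-239a-3p was at 146, 329, 351 and 626 against 778, 629, 651 and 1141 (-1.34 ± 0.32, adjusted p = 0.0774), and miR-789-3p was at 132, 186, 149 and 178 against 239, 252, 371 and 319. Both were called with TMM factors, with adjusted p = 0.0394 and 0.0433.

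In the comparison of early with late cycles, 2 further strands among the smallest p-values, the guide miR-797-3p and the passenger miR-230-3p, were higher at phase 5 h in the first 2 cycles and higher at phase 1 h in the last 2. For miR-230-3p the levels were 10934, 18882, 25398 and 19891 at phase 1 h and 22632, 35816, 15708 and 6251 at phase 5 h, and for miR-797-3p 247, 706, 1056 and 529 against 392, 1268, 510 and 306. Neither passed the test (interaction 2.17 ± 0.42 and 1.68 ± 0.30, adjusted p = 0.277 for each in edgeR).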
